A study of Mus musculus with 24 samples.

Results

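The genes of sugar uptake, glycolysis, lactate handling and the pentose phosphate pathway were followed in mouse bone marrow-derived macrophages, cells grown from marrow in medium conditioned by L929 cells. The 32 genes were taken by name from the table of 56941 gene IDs, and all 32 were among the 14757 genes that passed the filter on low counts. Macrophages without Hdac9 (HDAC9 knockout, KO) and macrophages lacking a cis-regulatory element of that gene (HDAC9 deltaCIS, here dCIS) were set against wild type (WT). Lipopolysaccharide (LPS), which bacteria carry and the receptor TLR4 senses, was given at 100 ng/ml for 6 hours or left out, and each of the 6 groups comprised 4 libraries. The series' design text says that cells spent their last hours before stimulation without L929-conditioned medium and were stimulated in medium without serum. The labels give neither the strain, age or sex of the mice, nor the deleted exons, nor how many animals stood behind the 4 libraries of a group, so the p-values measure the spread between these libraries only.

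Glycolysis splits glucose into pyruvate in a chain of cytosolic enzymes, and several of its steps have isoenzymes that differ in tissue and regulation. Lactate dehydrogenase turns pyruvate into lactate, which leaves the cell through monocarboxylate transporters. The pentose phosphate pathway branches off after the hexokinase step and yields NADPH and ribose phosphate. Macrophages that meet LPS are known to take up more glucose and release more lactate, and the transcription factor HIF-1, whose oxygen-regulated subunit is encoded by Hif1a, is a known activator of many glycolytic genes.

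Total counts per library ranged from 14636058 to 19181707. Libraries 3 and 4 of dCIS after LPS detected fewer genes (17628 and 15997) than the other 22 libraries, where 20458 or more had a count. Hdac9, which encodes a class IIa histone deacetylase, was lower in KO than in WT, with log2 fold changes of -5.32 after LPS (edgeR adjusted p = 1.37e-10) and -3.43 untreated (1.38e-09), and was not called in dCIS, at 0.25 after LPS (0.647) and 0.47 untreated (1). The macrophage genes listed with the design (Adgre1, Csf1r, Cd68 and 8 others) had summed group means of 18671 to 25661 CPM, CPM being counts scaled to a common library size. None of the neutrophil, T and B cell or erythroid markers listed passed the filter, and the summed level of these lists stayed at or under 1.57 CPM in each library, with the erythroid list at 0 in all but 1 library. The dendritic cell and the fibroblast and endothelial lists had 2 tested markers each, all called higher after LPS, with summed group means of up to 3.02 and 12.8 CPM after LPS against up to 0.934 and 2.05 CPM untreated, and the part of such cells in the results was not tested. In bulk RNA, a change in the share of cells that express a gene and a change in the RNA per cell cannot be told apart.

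The promoters of 5 genes are printed here. Slc2a1 and Pfkfb3 rose after LPS in the 3 genotypes, Pfkfb4 fell in the 3, and Pgk1 and Ldha are the others. With all libraries and no replicate block, Pgk1 and Ldha were called in WT alone. With the replicate number as a block within the genotype they were called in KO and dCIS as well. The log2 fold changes in KO were 0.59 (edgeR adjusted p = 3.82e-07) for Pgk1 and 0.42 (adjusted p = 0.000114) for Ldha. In dCIS, where the numbers are not shown to pair the libraries, they were 0.61 (adjusted p = 2.34e-07) and 0.35 (adjusted p = 0.000633). Each run holds the 300 bases around the start (mostly upstream) of the RefSeq gene model in build GRCm38.p6, written 5′ to 3′ on the strand of the gene. Capitals mark the letters ACGTG or GCGTG, the core of the sites that HIF-1 binds, on either strand, so that CACGT or CACGC in capitals is a match on the other strand.
Slc2a1 promoter, chr4:119108495-119108794, plus strand: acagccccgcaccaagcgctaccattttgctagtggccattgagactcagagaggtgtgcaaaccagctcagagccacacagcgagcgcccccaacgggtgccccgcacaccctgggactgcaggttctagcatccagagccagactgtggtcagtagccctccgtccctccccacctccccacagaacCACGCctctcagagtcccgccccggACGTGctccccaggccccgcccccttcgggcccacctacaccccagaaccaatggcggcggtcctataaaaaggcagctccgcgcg
Pfkfb3 promoter, chr2:11553880-11554179, minus strand: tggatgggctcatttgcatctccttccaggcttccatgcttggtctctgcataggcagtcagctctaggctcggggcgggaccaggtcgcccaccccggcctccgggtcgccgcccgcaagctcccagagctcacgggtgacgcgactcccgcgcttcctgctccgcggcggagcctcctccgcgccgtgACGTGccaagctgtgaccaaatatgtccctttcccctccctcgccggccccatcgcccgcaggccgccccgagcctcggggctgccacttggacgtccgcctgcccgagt
Pfkfb4 promoter, chr9:108991652-108991951, plus strand: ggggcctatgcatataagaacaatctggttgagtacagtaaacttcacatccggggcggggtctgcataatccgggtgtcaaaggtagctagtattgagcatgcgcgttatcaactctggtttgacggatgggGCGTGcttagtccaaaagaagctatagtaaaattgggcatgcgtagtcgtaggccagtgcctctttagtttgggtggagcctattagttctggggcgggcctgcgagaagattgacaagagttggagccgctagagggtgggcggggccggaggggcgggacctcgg
Pgk1 promoter, chrX:106186850-106187149, plus strand: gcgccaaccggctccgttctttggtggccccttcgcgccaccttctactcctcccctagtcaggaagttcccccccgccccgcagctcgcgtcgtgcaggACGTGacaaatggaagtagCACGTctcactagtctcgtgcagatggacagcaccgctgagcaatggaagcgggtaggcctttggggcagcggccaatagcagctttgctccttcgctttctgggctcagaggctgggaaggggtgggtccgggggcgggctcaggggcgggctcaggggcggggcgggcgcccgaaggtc
Ldha promoter, chr7:46845554-46845853, plus strand: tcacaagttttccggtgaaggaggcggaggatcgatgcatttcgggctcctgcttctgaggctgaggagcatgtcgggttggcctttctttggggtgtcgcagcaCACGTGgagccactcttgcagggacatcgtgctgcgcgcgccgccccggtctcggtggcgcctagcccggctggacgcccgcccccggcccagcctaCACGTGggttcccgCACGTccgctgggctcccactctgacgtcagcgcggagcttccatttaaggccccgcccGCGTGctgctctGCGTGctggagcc

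Matched by symbol, 31 of the 32 genes had a promoter in the RefSeq table; Slc2a3 did not. ACGTG or GCGTG was found in the first listed promoter of 25 of the 31 (80.6%), against 43.8% of the 27025 first listed promoters of all genes in the table. The promoters printed above all hold a match. Those of Hk1, Gpi1, Aldoa, Tpi1, Eno2 and Pkm, which are not printed, hold none. The classes that follow are those of the fit without a replicate block. Among the genes that rose in the 3 genotypes 8 of 10 promoters held a match, and among those that fell 5 of 5. Among those called in none it was 7 of 10, and among the remaining genes 5 of 6. With the replicate number as a block within the genotype, most genes of the class called in none were called in some or all genotypes. Only Pkm and Ldhb of that class then stayed uncalled in the 3 genotypes. A palindromic CACGTG, present in 2 places in the Ldha run, counts on both strands. Such a match is a description of letters in this window and does not show binding. The genes of the table were not restricted to those tested here and not matched for base composition. The first listed promoter need not be the one used in these cells.

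After LPS and without a replicate block, 17 of the 32 genes changed in KO, 19 in dCIS and 20 in WT. The test was edgeR's quasi-likelihood test at an adjusted p under 0.05. The background was wide: 61.6%, 64.7% and 61.4% of all tested genes were called in KO, dCIS and WT. In this fit the shares of the 32 genes, 53.1%, 59.4% and 62.5%, lay close to these. With the replicate number as a block within the genotype, 22 of the 32 genes were called in KO, 29 in dCIS and 26 in WT. Of all tested genes, 65%, 67.7% and 64.7% were called with it. In all 3 genotypes each LPS library's deviations correlated best with those of the untreated library of its own number. These correlations were all over 0.1 in KO and WT, and were 0.069, 0.339, 0.258 and 0.0396 in dCIS. Without the block the called genes split into 10 higher and 7 lower in KO, 11 and 8 in dCIS, and 12 and 8 in WT, where 30.9%, 31.3% and 30.4% of all genes were called higher and 30.7%, 33.3% and 31% lower. The median log2 fold change of the 32 genes was 0.09 in KO, 0.24 in dCIS and 0.34 in WT, beside 0.02, -0.05 and 0.0031 for all tested genes. Still without the block, 10 genes rose in the 3 genotypes (Slc2a1, Slc2a6, Hk1, Hk2, Hk3, Pfkp, Pfkfb3, Eno2, Slc16a1 and Hif1a). In the same fit 6 fell (Slc2a3, Pfkm, Aldoc, Pfkfb2, Pfkfb4 and Tkt), which made 16 in all. Of all tested genes 51.1% were called in 1 direction in the 3 genotypes, 25.9% higher and 25.1% lower. The LPS and untreated libraries did not overlap for 16 of the 32 genes in KO (50%), 15 in dCIS (46.9%) and 23 in WT (71.9%), beside 59%, 51.4% and 61.8% of all tested genes. The 3 comparisons use separate libraries, and a difference between genotypes is tested further on.

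These values rest on TMM scaling, which takes most genes as unchanged. With total counts as the only scaling the median log2 fold change of all tested genes after LPS moved to -0.80 in KO, -0.81 in dCIS and -0.80 in WT. On that scale 9 of the 32 genes rose in each genotype, the 10 named above without Eno2, and 18, 18 and 17 fell. Of the 14757 tested genes, 2045, 2234 and 2067 were called higher on it in KO, dCIS and WT. Called lower were 9494, 9444 and 9522 of them. In all, 33 log2 changes that were above 0 with TMM were below 0 on that scale, 8 in KO, 12 in dCIS and 13 in WT. Those of Pfkl, Aldoa, Gapdh, Pgk1, Eno1, Ldha, Slc16a3 and Pgd turned in the 3 genotypes, those of Pgam1, Eno2, Pkm and G6pdx in dCIS and WT, and that of Tpi1 in WT. As a share of all counts, the 32 genes made up 0.782 ± 0.119% in KO after LPS against 0.951 ± 0.198% untreated, 0.880 ± 0.135% against 1.02 ± 0.198% in dCIS, and 0.864 ± 0.0403% against 0.978 ± 0.0767% in WT (SD, n = 4 each).

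**Figure D1:**
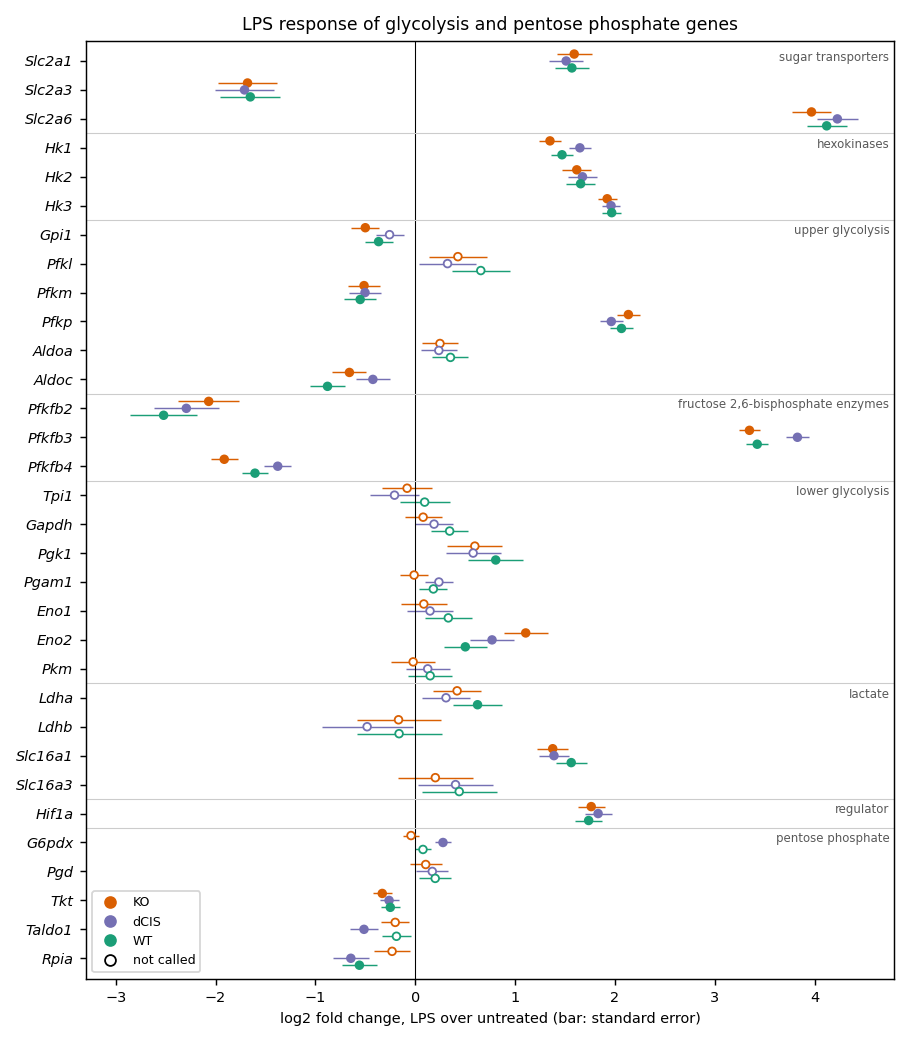
The log2 fold change of each of the 32 genes, LPS over untreated, is on the horizontal axis with its standard error as a bar, with KO, dCIS and WT as points and open points for genes not called. Slc2a6 and Pfkfb3 stand farthest right and Pfkfb2 farthest left, while most genes of lower glycolysis lie near 0.

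Among the sugar transporters, 2 rose and 1 fell in each genotype. Slc2a6 encodes GLUT6, a transporter of haematopoietic cells that sits largely on intracellular membranes. Slc2a6 stood at 573, 874, 503 and 565 CPM in KO libraries 1 to 4 after LPS, against 41.5, 25.7, 49.0 and 44.5 CPM in untreated KO libraries. For Slc2a6 in dCIS, the LPS libraries held 626, 645, 477 and 598 CPM and the untreated ones 29.3, 24.1, 38.3 and 33.4 CPM. WT libraries gave Slc2a6 633, 642, 623 and 719 CPM after LPS and 46.9, 31.3, 34.5 and 37.6 CPM untreated. All LPS libraries lay above all untreated ones, with log2 fold changes of 3.97 in KO, 4.23 in dCIS and 4.12 in WT, the largest rises of the 32 genes. Slc2a1 encodes GLUT1, the main glucose carrier of the plasma membrane in macrophages. Slc2a1 stood at 244, 179, 224 and 255 CPM in KO libraries 1 to 4 after LPS, against 92.6, 48.7, 80.9 and 77.1 CPM in untreated KO libraries. For Slc2a1 in dCIS, the LPS libraries held 263, 219, 239.8 and 225 CPM and the untreated ones 94.3, 54.1, 85.4 and 98.3 CPM. WT libraries gave Slc2a1 292, 249, 305 and 269 CPM after LPS and 106, 98.2, 99.8 and 72.3 CPM untreated. The LPS libraries of each genotype were all higher, with log2 fold changes of 1.59 in KO, 1.51 in dCIS and 1.57 in WT, and KO library 2 was the lowest KO library in both treatments. Slc2a3, which encodes the high-affinity carrier GLUT3, went the other way at a level of a few CPM. Slc2a3 stood at 1.39, 1.44, 1.75 and 1.19 CPM in KO libraries 1 to 4 after LPS, against 5.66, 4.70, 3.61 and 4.60 CPM in untreated KO libraries. For Slc2a3 in dCIS, the LPS libraries held 1.54, 2.14, 1.10 and 1.06 CPM and the untreated ones 5.35, 5.43, 4.51 and 3.81 CPM. WT libraries gave Slc2a3 1.39, 1.94, 0.627 and 1.05 CPM after LPS and 4.04, 6.09, 2.47 and 3.20 CPM untreated. No LPS library reached an untreated one of its genotype, with log2 fold changes of -1.68 in KO, -1.71 in dCIS and -1.65 in WT. Adjusted p-values for these genes in the 3 genotypes were at most 2.51e-08 for Slc2a1, 1.67e-15 for Slc2a6 and 3.07e-05 for Slc2a3.

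The 3 hexokinases, which trap glucose as glucose 6-phosphate, all rose. Hk3, the hexokinase most abundant in myeloid cells, was high before LPS. Hk3 stood at 1065, 1217, 971 and 952 CPM in KO libraries 1 to 4 after LPS, against 279, 253, 295 and 282 CPM in untreated KO libraries. For Hk3 in dCIS, the LPS libraries held 1076, 1127, 915 and 1072 CPM and the untreated ones 260.1, 263, 262 and 291 CPM. WT libraries gave Hk3 1045, 1049, 945 and 1095 CPM after LPS and 268, 278, 252 and 258 CPM untreated. Its groups did not overlap, and its rise was 1.92 ± 0.09, 1.96 ± 0.09 and 1.97 ± 0.09 in KO, dCIS and WT (log2 ± SE). Hk2 encodes the mitochondria-bound inducible hexokinase. Hk2 stood at 172, 155, 173 and 202 CPM in KO libraries 1 to 4 after LPS, against 59.9, 39.4, 66.5 and 63.5 CPM in untreated KO libraries. For Hk2 in dCIS, the LPS libraries held 161, 174, 196 and 187 CPM and the untreated ones 54.6, 45.9, 66.7 and 57.6 CPM. WT libraries gave Hk2 166, 149, 198 and 199.6 CPM after LPS and 59.3, 45.9, 66.5 and 54.1 CPM untreated. Every LPS library of Hk2 lay above every untreated one, a log2 change of 1.62 ± 0.15, 1.67 ± 0.15 and 1.66 ± 0.15 in KO, dCIS and WT. Hk1 encodes the broadly expressed hexokinase. Hk1 stood at 329, 264, 275 and 298 CPM in KO libraries 1 to 4 after LPS, against 117, 94.1, 116 and 131 CPM in untreated KO libraries. For Hk1 in dCIS, the LPS libraries held 301, 287, 358 and 378 CPM and the untreated ones 117, 101, 109 and 96.1 CPM. WT libraries gave Hk1 307, 249, 272 and 304 CPM after LPS and 112, 95.4, 103 and 98.4 CPM untreated. Its rise, 1.35 ± 0.11, 1.65 ± 0.11 and 1.47 ± 0.11, was also free of overlap. Per kilobase of exon, on the scale of CPM per kb, Hk3 was far above the others: 281 ± 17.2 in WT after LPS and 71.8 ± 3.08 untreated, against 33.2 ± 3.22 and 12.0 ± 0.873 for Hk1 and 29.8 ± 4.15 and 9.46 ± 1.45 for Hk2 (SD, n = 4).

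**Figure D2:**
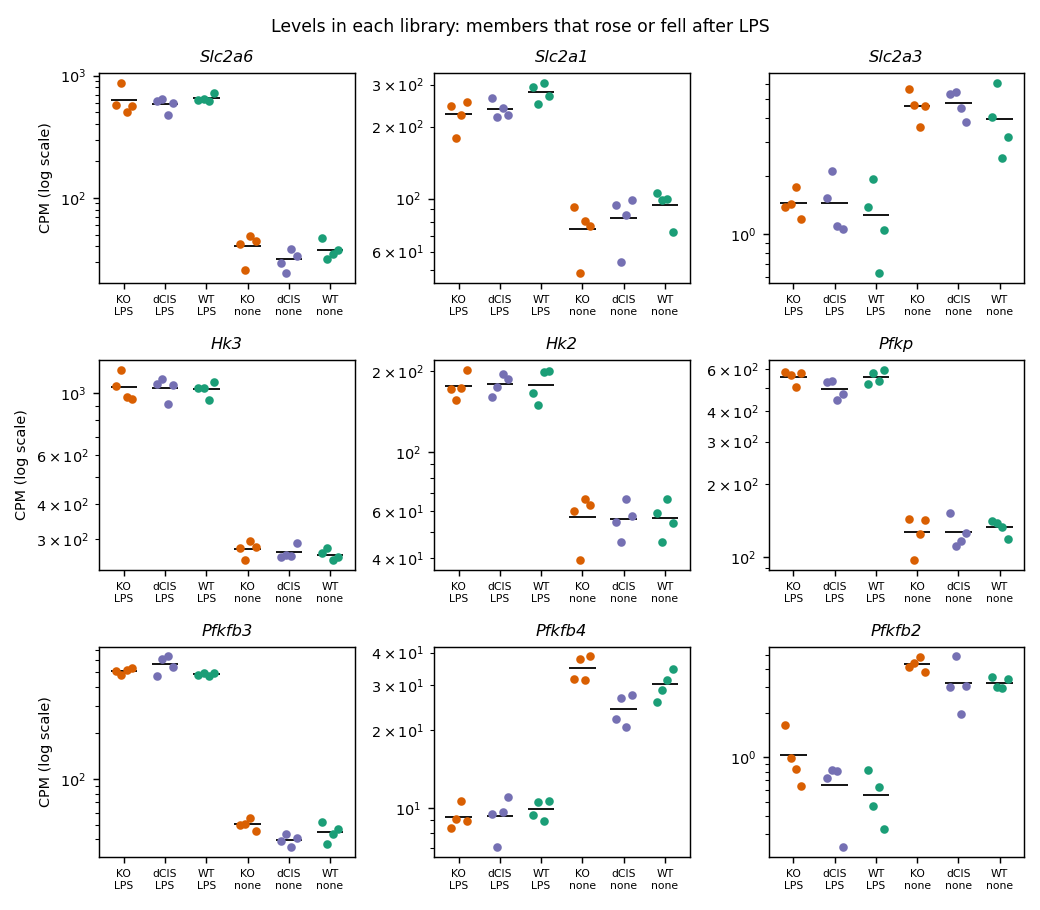
CPM in each of the 24 libraries, on a log axis, for 9 genes; points are libraries, the bar is the group mean, and groups run KO, dCIS and WT after LPS and then untreated ("none"). The LPS groups of Slc2a6, Slc2a1, Hk3, Hk2, Pfkp and Pfkfb3 lie above their untreated groups, and those of Slc2a3, Pfkfb4 and Pfkfb2 below.

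The fructose 2,6-bisphosphate enzymes, which make and break the strongest known activator of phosphofructokinase, moved in opposite directions. Pfkfb3, the isoform with the highest ratio of kinase to phosphatase activity, rose. Pfkfb3 stood at 508, 483, 519 and 533 CPM in KO libraries 1 to 4 after LPS, against 49.9, 50.3, 55.3 and 45.2 CPM in untreated KO libraries. For Pfkfb3 in dCIS, the LPS libraries held 475, 611, 635 and 544 CPM and the untreated ones 39.2, 43.7, 35.7 and 40.8 CPM. WT libraries gave Pfkfb3 480.0, 491, 473 and 491 CPM after LPS and 51.9, 37.4, 43.7 and 47.2 CPM untreated. The groups lay far apart, with log2 fold changes of 3.35 in KO, 3.83 in dCIS and 3.43 in WT (largest adjusted p 3.44e-19). Pfkfb4 fell. Pfkfb4 stood at 8.34, 9.06, 10.6 and 8.92 CPM in KO libraries 1 to 4 after LPS, against 31.5, 37.9, 31.2 and 38.6 CPM in untreated KO libraries. For Pfkfb4 in dCIS, the LPS libraries held 9.48, 7.06, 9.66 and 11.0 CPM and the untreated ones 22.2, 26.6, 20.6 and 27.5 CPM. WT libraries gave Pfkfb4 9.39, 10.5, 8.93 and 10.7 CPM after LPS and 25.7, 28.7, 31.3 and 34.7 CPM untreated. Each LPS library was below each untreated one, with log2 fold changes of -1.91 in KO, -1.38 in dCIS and -1.61 in WT. Pfkfb2, an isoform known from heart, was at a few CPM untreated and near 1 CPM after LPS. Pfkfb2 stood at 1.67, 0.987, 0.835 and 0.637 CPM in KO libraries 1 to 4 after LPS, against 4.16, 4.42, 4.84 and 3.80 CPM in untreated KO libraries. For Pfkfb2 in dCIS, the LPS libraries held 0.729, 0.821, 0.805 and 0.245 CPM and the untreated ones 3.01, 4.87, 1.98 and 3.06 CPM. WT libraries gave Pfkfb2 0.817, 0.465, 0.627 and 0.323 CPM after LPS and 3.53, 3.02, 2.95 and 3.44 CPM untreated. The fall was -2.07 ± 0.30, -2.29 ± 0.32 and -2.52 ± 0.33 in KO, dCIS and WT (log2 ± SE). Since both genes are read from the same libraries, the ratio of Pfkfb3 to Pfkfb4 does not depend on library scaling: it was 38.3-fold higher after LPS in KO, 36.9-fold in dCIS and 32.7-fold in WT. With 4 libraries against 4 the exact permutation test cannot go below p = 0.0286. Over the 36 isoenzyme ratios tested (12 in each genotype) that becomes 0.0541 after Benjamini-Hochberg adjustment, so 0 of 36 passed. This adjusted value depends on how many of the 36 reach the floor, not on the size of their changes. The ratio of Pfkfb3 to Pfkfb4 reached the floor in all 3 genotypes. So did those of Slc2a3 to Slc2a1, Slc2a6 to Slc2a1 and Pfkp to Pfkl.

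In upper glycolysis and without the block, 1 phosphofructokinase subunit was called higher and others were not. Pfkp encodes the platelet-type subunit. Pfkp stood at 583, 564, 504 and 575 CPM in KO libraries 1 to 4 after LPS, against 143, 97.2, 124 and 142 CPM in untreated KO libraries. For Pfkp in dCIS, the LPS libraries held 528, 533, 444 and 470.3 CPM and the untreated ones 152, 112, 117 and 126 CPM. WT libraries gave Pfkp 520.4, 575, 532 and 595 CPM after LPS and 141, 138, 133 and 119 CPM untreated. The LPS libraries of Pfkp were all higher, at log2 fold changes of 2.13 in KO, 1.96 in dCIS and 2.07 in WT. Pfkm, the muscle-type subunit, was at 6.15 ± 1.58, 6.16 ± 0.671 and 6.19 ± 0.718 CPM in KO, dCIS and WT after LPS, against 8.79 ± 1.26, 8.75 ± 0.750 and 9.08 ± 0.575 CPM untreated, and fell by 0.51, 0.50 and 0.55 on the log2 scale. Pfkl, the liver-type subunit, was not called: its log2 changes of 0.43 ± 0.29, 0.32 ± 0.29 and 0.66 ± 0.29 in KO, dCIS and WT had large errors, with adjusted p-values of 0.209, 0.336 and 0.052. With the replicate number as a block within the genotype, Pfkl was called in KO (0.45, adjusted p = 5.64e-05), dCIS (0.34, adjusted p = 0.000914) and WT (0.66, adjusted p = 4.29e-07). In WT it was also called in the compared groups alone (0.62, adjusted p = 0.000923). The ratio of Pfkp to Pfkl, free of library scaling, rose by 1.69, 1.63 and 1.41 in KO, dCIS and WT (log2), with no overlap of the groups. Per kilobase, Pfkp went past Pfkl in WT after LPS (41.5 ± 2.64 against 21.3 ± 3.85 CPM per kb), whereas untreated it was 9.90 ± 0.734 against 13.5 ± 2.72. Aldoc, a brain-type aldolase at 3.03 to 4.74 CPM in WT after LPS and 7.35 to 8.23 untreated, fell by 0.66, 0.43 and 0.88 in KO, dCIS and WT on the log2 scale, and the dCIS call was lost in the fit of the compared groups alone (adjusted p = 0.119) and in 5 of the 8 fits that each left out 1 dCIS library (0.0594 to 0.105), and without both dCIS libraries 2 (0.151). Aldoa was the main aldolase here, at 1869 ± 187 CPM in WT after LPS and 1464 ± 146 untreated. It was not called in the fit of all groups without a block, at 0.25 ± 0.18, 0.24 ± 0.18 and 0.35 ± 0.18. With the block Aldoa was called in KO (0.25, adjusted p = 0.00548), dCIS (0.25, adjusted p = 0.00568) and WT (0.35, adjusted p = 0.000284). In WT it was also called in the compared groups alone (0.32, adjusted p = 0.00798). Gpi1, glucose 6-phosphate isomerase, fell by 0.50 in KO and 0.37 in WT and was not called in dCIS (-0.26, adjusted p = 0.11). It was called in dCIS without LPS libraries 3 and 4 (-0.42, adjusted p = 0.0373) and without untreated library 2 (-0.35, adjusted p = 0.0384). The replicate block also called it in dCIS, over all groups (-0.26, adjusted p = 0.0453) and within the genotype (-0.26, adjusted p = 0.00406). Its WT call was lost in 4 of the 8 fits that each left out 1 WT library (adjusted p 0.0542 to 0.0771).

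Lower glycolysis turns triose phosphate into pyruvate, and few of its genes were called on the TMM scale without the block. Of 7 genes, 1 rose in KO, 1 in dCIS and 2 in WT, and none fell, whereas on total counts every change of the 7 was below 0 except that of Eno2 in KO. Eno2, the neuronal enolase, was the one that rose in the 3 genotypes. Eno2 stood at 17.9, 28.5, 14.6 and 16.3 CPM in KO libraries 1 to 4 after LPS, against 9.14, 12.7, 7.42 and 6.52 CPM in untreated KO libraries. For Eno2 in dCIS, the LPS libraries held 19.8, 17.2, 12.4 and 12.5 CPM and the untreated ones 11.9, 8.71, 7.48 and 8.15 CPM. WT libraries gave Eno2 16.9, 14.5, 14.7 and 20.4 CPM after LPS and 13.6, 12.9, 8.95 and 11.5 CPM untreated. Its LPS and untreated libraries did not overlap, with log2 changes of 1.11 ± 0.22, 0.77 ± 0.22 and 0.50 ± 0.22 in KO, dCIS and WT. The WT call of Eno2, at adjusted p = 0.0488, was lost with size factors by median of ratios (0.0691), in DESeq2 (0.0637) and in 5 of the 8 fits that each left out 1 WT library (0.0538 to 0.165), and on total counts it ended in all 3. Pgk1, phosphoglycerate kinase, was called in WT, at 0.81 ± 0.28 (adjusted p = 0.0137), beside 0.60 (adjusted p = 0.0638) in KO and 0.58 (adjusted p = 0.0683) in dCIS. With the block it was called in KO (0.59, adjusted p = 3.82e-07) and dCIS (0.61, adjusted p = 2.34e-07). In KO it was also called without LPS library 2 (0.82, adjusted p = 0.00868) or untreated library 3 (0.77, adjusted p = 0.0287). In dCIS it was also called without LPS library 2 (0.71, adjusted p = 0.0375) or untreated library 3 (0.74, adjusted p = 0.0284). The difference of the LPS responses of these genotypes was not called. Gapdh, Eno1, Pkm, Tpi1 and Pgam1 were not called in any genotype without the block, with log2 changes between -0.21 and 0.34. With the block Gapdh (0.35, adjusted p = 0.000744) and Eno1 (0.33, adjusted p = 0.00082) were called in WT. Both were also called in WT in the compared groups alone (0.31, adjusted p = 0.00305, and 0.30, adjusted p = 0.0227). In dCIS the block called Gapdh (0.20, adjusted p = 0.0314), Pgam1 (0.24, adjusted p = 0.0116) and Tpi1 (-0.21, adjusted p = 0.0185). Pkm, pyruvate kinase, averaged 1116 ± 321, 1329.8 ± 323 and 1196 ± 118 CPM after LPS in KO, dCIS and WT, against 1133 ± 328, 1219.8 ± 318 and 1079 ± 112 CPM untreated. Gapdh and other genes of this group have processed copies elsewhere in the mouse genome, and how the authors' counting split reads between copies is not given in the sources used here.

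Lactate genes split by transporter. Slc16a1 encodes the lactate carrier MCT1, and it rose. Slc16a1 stood at 36.6, 36.5, 37.3 and 40.0 CPM in KO libraries 1 to 4 after LPS, against 16.9, 8.79, 16.3 and 16.0 CPM in untreated KO libraries. For Slc16a1 in dCIS, the LPS libraries held 41.0, 43.9, 40.9 and 53.3 CPM and the untreated ones 17.7, 14.4, 18.1 and 18.2 CPM. WT libraries gave Slc16a1 35.9, 52.9, 39.9 and 42.4 CPM after LPS and 15.3, 16.1, 13.3 and 13.3 CPM untreated. The LPS groups did not overlap the untreated ones, with log2 fold changes of 1.38 in KO, 1.39 in dCIS and 1.56 in WT. Slc16a3 encodes MCT4, the carrier known for lactate export from glycolytic cells. Without the block it was not called, with log2 changes of 0.20 ± 0.38, 0.40 ± 0.37 and 0.44 ± 0.37 in KO, dCIS and WT. With the block it was called in dCIS (0.44, adjusted p = 0.000766) and WT (0.46, adjusted p = 0.000548). Ldha, the lactate dehydrogenase subunit that dominated here, was called in WT (0.62, adjusted p = 0.0288) and lost in 4 of the 8 fits that each left out 1 WT library (adjusted p 0.0595 to 0.0861). In KO it stood at 0.42 (adjusted p = 0.139) and was called with the block (0.42, adjusted p = 0.000114) and without LPS library 2 (0.61, adjusted p = 0.0291). In dCIS, Ldha was called with the block (0.35, adjusted p = 0.000633) and not without it. Ldhb stayed near 1 CPM and was not called.

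Hif1a rose in each genotype. Hif1a stood at 372, 363, 361 and 351 CPM in KO libraries 1 to 4 after LPS, against 111, 96.3, 111 and 109 CPM in untreated KO libraries. For Hif1a in dCIS, the LPS libraries held 272, 338, 191 and 231 CPM and the untreated ones 77.0, 86.6, 54.2 and 72.3 CPM. WT libraries gave Hif1a 289, 288, 248 and 302 CPM after LPS and 88.3, 80.2, 81.5 and 88.2 CPM untreated. All LPS libraries were above all untreated ones, with log2 changes of 1.76 ± 0.14, 1.83 ± 0.14 and 1.74 ± 0.14 in KO, dCIS and WT. Of the 5 pentose phosphate genes, Tkt, transketolase, fell slightly in the 3 genotypes, by 0.33, 0.26 and 0.25 on the log2 scale, and its libraries overlapped in KO and dCIS; the WT call of Tkt was lost in 4 of the 8 fits that each left out 1 WT library (adjusted p 0.051 to 0.0608), and its dCIS call in the compared groups alone (0.0642), without untreated dCIS library 1 (0.0571) and without dCIS LPS libraries 3 and 4 (0.0614). Rpia, ribose 5-phosphate isomerase, fell by 0.65 in dCIS and 0.56 in WT (adjusted p = 0.00257 and 0.00777). Taldo1, transaldolase, was called lower in dCIS (-0.51, adjusted p = 0.00264), and in KO with the block (-0.20, adjusted p = 0.046) and in the compared groups alone (-0.28, adjusted p = 0.0302). G6pdx, the enzyme that commits glucose 6-phosphate to this pathway, was called higher in dCIS (0.28, adjusted p = 0.00465), a call lost without untreated dCIS library 3 (0.11, adjusted p = 0.197). Pgd, the next NADPH-yielding enzyme, was not called in the 3 genotypes without the block. With the block it was called in dCIS (0.18, adjusted p = 0.0484) and WT (0.20, adjusted p = 0.0278).

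Between genotypes, 1 of the 32 genes was called. G6pdx was 265, 264, 269 and 285 CPM in untreated KO libraries 1 to 4 and 216, 219, 238 and 228 CPM in untreated WT libraries, with all KO libraries higher and a log2 fold change of 0.27 ± 0.08 (edgeR adjusted p = 0.0478). Leaving out any of the 8 libraries ended the call (adjusted p 0.0568 to 0.146), as did both KO libraries 2 together (0.0562) and scaling by total counts (0.0724). In this comparison 7.31% of all tested genes were called, 5.03% higher, and the members' share was 3.12%; libraries did not overlap for 4 of the 32 genes (12.5%) and for 21.5% of all genes. The share over all genes rested on single libraries: without 1 of the 8 libraries between 90 and 951 genes were called, against 1078 with all, and the count fell by over 1.5 times for each library but KO 2 and WT 4. In the compared groups alone it was 2351. After LPS, G6pdx read 267, 259, 267 and 259 CPM in KO and 248, 229, 219 and 254 CPM in WT, again without overlap, and was not called (0.15, adjusted p = 0.317).

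After LPS, KO against WT gave 0 calls among the 32 genes at 2.74% of all tested genes, with 0 also in DESeq2, 3 genes at an unadjusted p under 0.05 and groups apart for 2 genes (18.3% of all genes). Here 405 of all tested genes were called with all libraries, 68 to 455 without 1 of the 8, more than 1.5 times fewer for each but KO 4 and WT 4, and 1993 in the compared groups alone. DESeq2 called 1080 of the 14757 tested genes. Hif1a held 372, 363, 361 and 351 CPM in KO LPS libraries, against 289, 288, 248 and 302 CPM in WT LPS libraries, and 111, 96.3, 111 and 109 CPM against 88.3, 80.2, 81.5 and 88.2 CPM untreated. In both treatments each KO library was above each WT library, at 0.36 after LPS and 0.33 untreated (log2), but neither was called (edgeR adjusted p = 0.119 and 0.112). In the fits of the compared groups alone both were called (0.0102 and 0.0161), and DESeq2 called the untreated one (0.0453). Hif1a lies on chromosome 12, which also carries Hdac9, and whether this bears on the difference was not tested. Taldo1 averaged 268 ± 26.1 CPM in untreated KO and 334 ± 34.5 CPM in untreated WT, with no overlap, and 233 ± 26.5 against 293 ± 39.0 CPM after LPS (SD, n = 4), with adjusted p-values of 0.157 and 0.177; it was called in the fits of the compared groups alone (0.0428 and 0.0415).

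The dCIS libraries gave 0 calls against WT among the 32 genes after LPS and 0 untreated, where 0.258% and 0.0542% of all tested genes were called, with 2 genes each at an unadjusted p under 0.05 and libraries apart for 0 and 1 of the 32 genes, beside 6.86% and 2.51% of all genes. These 38 and 8 of all tested genes became 16 to 195 and 5 to 9 without 1 library, the 195 without dCIS LPS library 1. DESeq2 also gave 0 of the 32 in both, where it called 203 and 19 of the 14757 tested genes. DESeq2 gave 0 calls for the differences of response as well. The LPS response of KO minus that of WT was called for 0 of the 32 genes (0.0203% of all genes; 0 at an unadjusted p under 0.05), and that of dCIS minus that of WT for 0 (0% of all genes; 1 at an unadjusted p under 0.05). That gene was Pfkfb3, whose response was 0.40 ± 0.14 larger in dCIS on the log2 scale, with an adjusted p of 0.541. The genes called after LPS in 1 genotype and not in another are therefore not shown to respond differently.

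**Figure D3:**
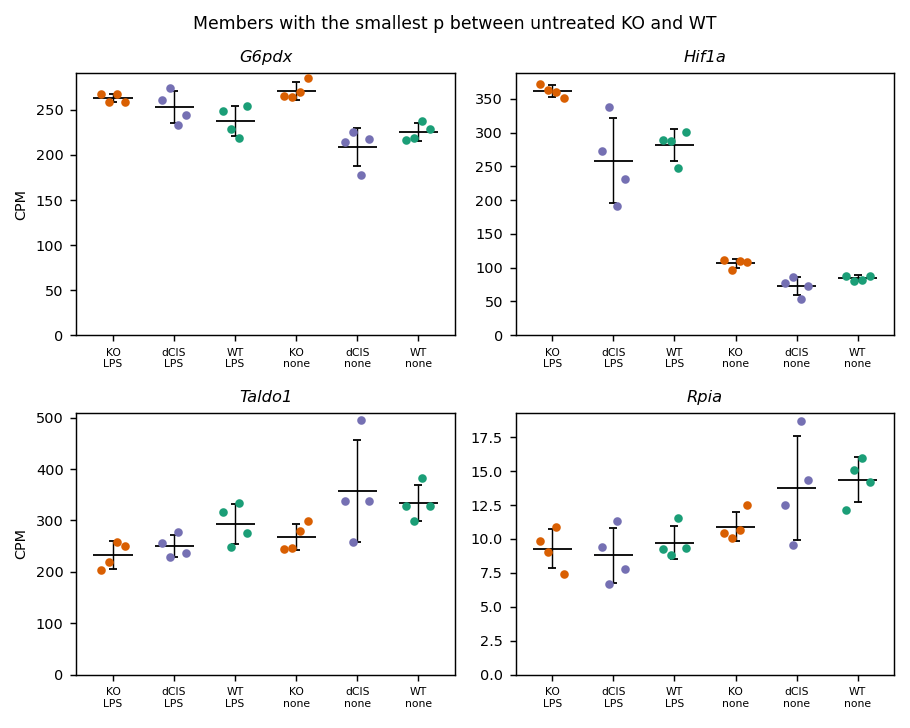
CPM in each library for the 4 genes with the smallest p between untreated KO and WT; points are libraries, bars are the mean and SD of 4 libraries, and groups run KO, dCIS and WT after LPS and then untreated. KO libraries of G6pdx and Hif1a lie above WT libraries in both treatments.

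Several genes that, without the block, were called after LPS in no genotype or in WT alone differed strongly between libraries of a group. Among the 27 genes at 10 CPM or more on average the median SD of log2 levels within groups was 0.248, beside 0.181 for the 7740 tested genes at that level. It was 0.653 for Slc16a3, higher than in 99.5% of those genes, 0.492 for Pfkl, 0.471 for Pgk1, 0.42 for Tpi1, 0.404 for Ldha and 0.391 for Eno1. It was low for G6pdx (0.0928), Hk3 (0.108) and Tkt (0.118). Slc16a3 read 69.4, 33.2, 91.6 and 89.7 CPM in KO libraries 1 to 4 after LPS and 60.6, 24.1, 86.6 and 76.2 CPM untreated, so library 2 was the lowest in both. In dCIS it read 80.8, 59.5, 171 and 130.5 CPM after LPS and 72.7, 36.2, 143 and 82.1 CPM untreated, with library 2 lowest and library 3 highest in both. WT libraries read 101, 86.2, 137 and 90.0 CPM after LPS and 85.4, 68.6, 100.4 and 50.6 CPM untreated.

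For most of lower glycolysis, libraries of the same number kept their rank in both treatments, in KO, dCIS and WT. KO library 2 was the lowest of its group for 6 of the 7 genes both after LPS and untreated, and for 18 and 23 of the 32 genes; it was the lowest library for 29.4% and 33.9% of all tested genes. Pgk1 in KO library 2 was -1.24 from the mean of the other 3 after LPS and -1.22 untreated (log2), Ldha -0.985 and -1.01 and Pkm -0.969 and -0.961. dCIS library 3 was highest for 5 of the 7 in both treatments, and for 17 of the 32 genes after LPS and 15 untreated, against 25.1% and 34.6% of all genes. Eno2 went against the rest, at 0.811 and 0.728 above the other KO libraries in KO library 2. WT library 4 was lowest for 6 of the 7 genes both after LPS and untreated, against 25.7% and 27.4% of all genes. WT library 3 was highest for 5 after LPS and 6 untreated (23.8% and 21.2% of all genes), and KO library 3 for 6 and 5 (23.2% and 22.7%). The lowest library in dCIS was library 2 for 4 and 6 of the 7 genes (17.8% and 33.3% of all genes). Fits without both KO libraries 2, without both dCIS libraries 2 and without both dCIS libraries 3 were added after seeing the data, and the first called Pgk1 in KO (0.595, adjusted p = 0.0306) and ended the G6pdx call between untreated KO and WT (0.0562). The second ended the Aldoc call in dCIS (-0.337, adjusted p = 0.151), and the third changed no call among the 32 genes. Untreated KO library 2 also had the highest total count of the 24 libraries, 19181707, whereas KO LPS library 2 had 16041874. The part of depth in the low levels of these libraries was not tested.

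**Figure D4:**
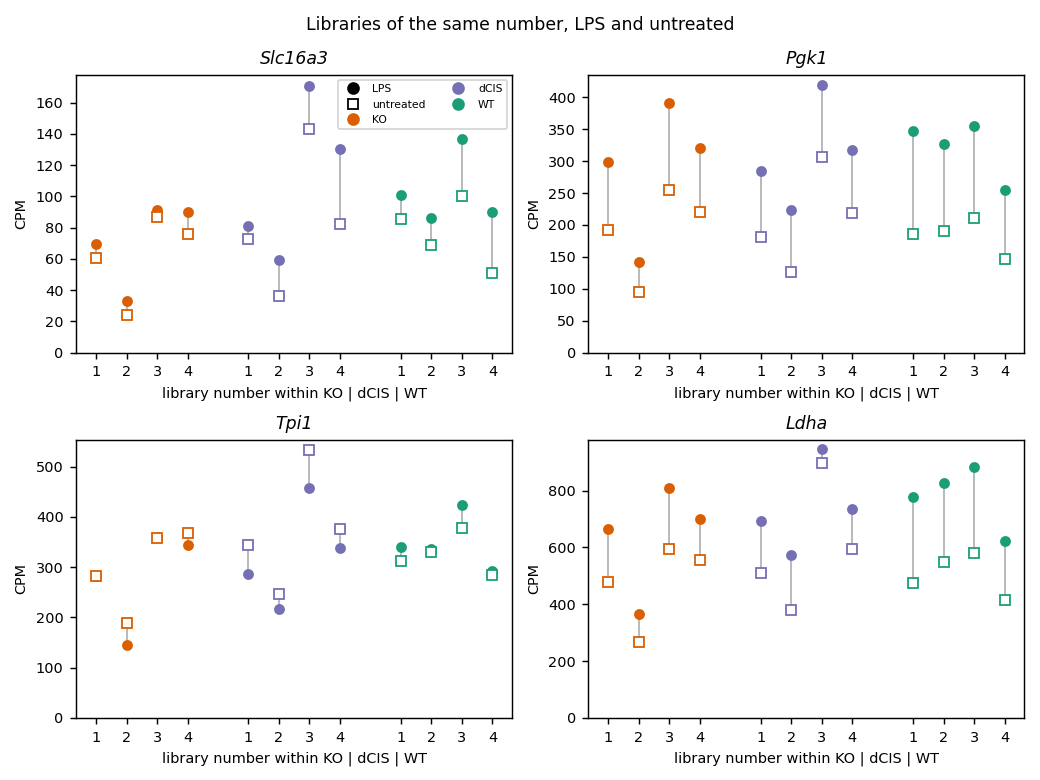
CPM of Slc16a3, Pgk1, Tpi1 and Ldha by library number within KO, dCIS and WT, with filled circles for LPS and open squares for untreated libraries and a line joining the same number. KO library 2 is the lowest KO library in both treatments and dCIS library 3 the highest dCIS library.

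**Figure D5:**
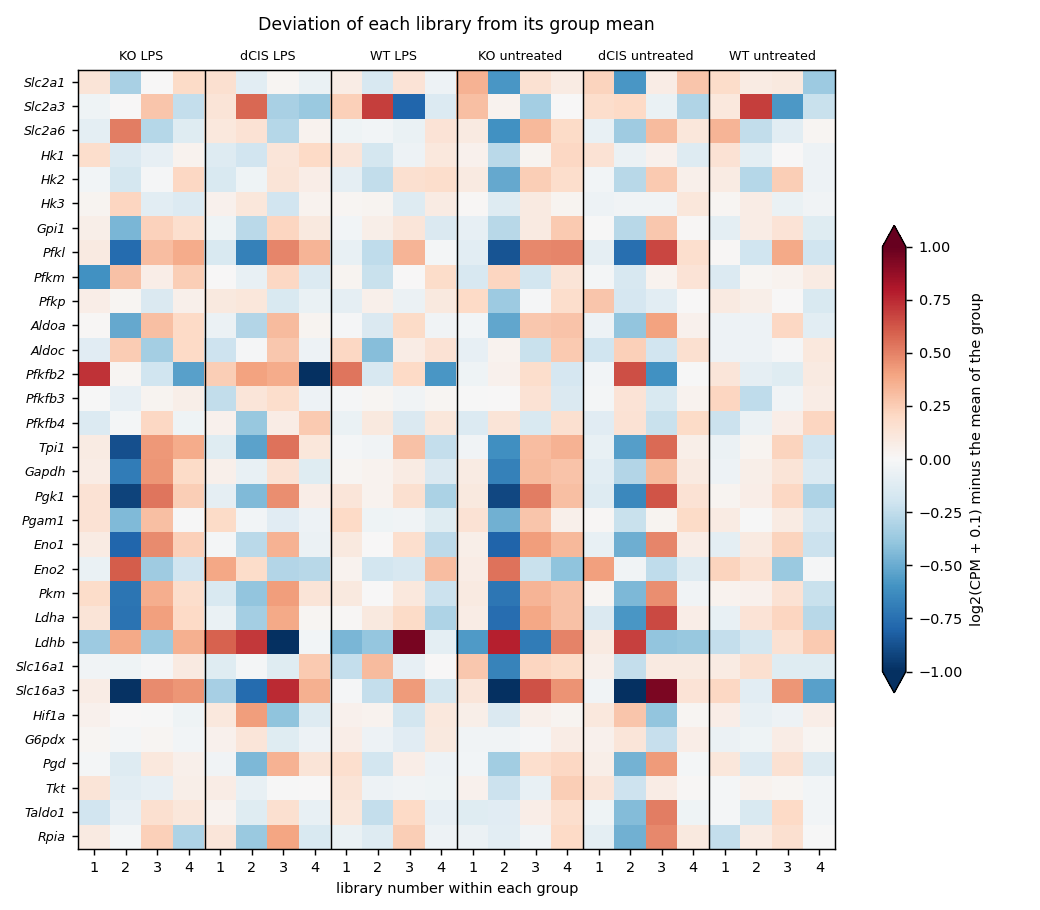
Each library's log2(CPM + 0.1) minus the mean of its group, for the 32 genes down the page and the 24 libraries across, red for higher and blue for lower. KO library 2 is blue across Pfkl, Tpi1, Pgk1, Eno1, Pkm, Ldha and Slc16a3 after LPS and untreated, and dCIS library 3 is red across the same genes.

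Of 21 further tested genes of sugar transport, glycolysis and the pentose phosphate pathway, 3 rose and 12 fell after LPS in KO, 4 and 13 in dCIS, and 3 and 11 in WT; their median log2 fold change was -0.52, -0.48 and -0.52, beside 0.02, -0.05 and 0.0031 for all genes. The called shares were 71.4%, 81% and 66.7%, against 61.6%, 64.7% and 61.4% of all tested genes. Gpd2, the mitochondrial glycerol phosphate dehydrogenase, rose by 3.14 ± 0.20, 3.22 ± 0.20 and 3.23 ± 0.20 in KO, dCIS and WT (log2 ± SE), and Rpe, ribulose phosphate epimerase, by 1.42 ± 0.11, 1.51 ± 0.11 and 1.60 ± 0.11. Minpp1, an inositol polyphosphate phosphatase, rose by 1.89 ± 0.10, 1.51 ± 0.10 and 1.63 ± 0.10. The log2 changes of Shpk, sedoheptulokinase, were -2.06 ± 0.37, -3.51 ± 0.43 and -2.27 ± 0.37, and those of H6pd, which acts on hexose 6-phosphate in the endoplasmic reticulum, -1.60 ± 0.12, -1.13 ± 0.12 and -1.36 ± 0.12. Slc2a8, a further sugar carrier, stood at -1.51 ± 0.24, -1.33 ± 0.24 and -1.60 ± 0.24, and Slc16a7, a further lactate carrier, at -1.08 in WT. Between untreated KO and WT, Pgls and Minpp1 were called lower, at -0.43 and -0.31 (adjusted p = 0.0445 and 0.0462).

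Of 13 tested genes of pyruvate entry into mitochondria, 4 rose and 3 fell in KO, 4 and 5 in dCIS, and 5 and 3 in WT. Those shares, 53.8%, 69.2% and 61.5%, lay near the 61.6%, 64.7% and 61.4% of all tested genes, and the medians were 0.05, -0.07 and -0.08 (log2). Pdk3, a kinase that inhibits pyruvate dehydrogenase, rose by 2.02 ± 0.16, 1.52 ± 0.16 and 2.03 ± 0.16 (log2 ± SE in KO, dCIS and WT), whereas Pdk2 had log2 changes of -2.85 ± 0.33, -3.14 ± 0.35 and -2.76 ± 0.33. Mpc1, a subunit of the mitochondrial pyruvate carrier, was called lower in dCIS than WT after LPS, at -0.55 (adjusted p = 0.0344). Among the 11 tested partners and oxygen sensors of HIF-1, 5 rose and 3 fell in KO and in dCIS, and 6 and 3 in WT (72.7%, 72.7% and 81.8% called), with medians of 0.31, 0.42 and 0.31. Egln3, a prolyl hydroxylase of HIF subunits, had log2 changes of -3.17 ± 0.44, -2.64 ± 0.41 and -2.88 ± 0.40, and Cul2, part of the ligase that marks HIF subunits for breakdown, of 1.43 ± 0.11, 1.52 ± 0.11 and 1.53 ± 0.11. Of 16 tested HIF-1 targets outside glycolysis, 5 rose and 10 fell in KO, 5 and 9 in dCIS, and 5 and 10 in WT (93.8%, 87.5% and 93.8% called), with medians of -0.94, -0.66 and -0.74. Adm, adrenomedullin, rose by 3.08 ± 0.37, 2.62 ± 0.36 and 2.81 ± 0.36 and P4ha1, a collagen prolyl hydroxylase, by 1.89 ± 0.14, 1.73 ± 0.14 and 1.82 ± 0.14. Vegfa, the vascular growth factor, stood at -2.66 ± 0.21, -2.00 ± 0.20 and -2.51 ± 0.20, Ddit4, an inhibitor of mTOR signalling, at -1.74 ± 0.41, -1.46 ± 0.37 and -2.15 ± 0.38 and Bhlhe40, a transcriptional repressor, at -2.08 ± 0.23, -1.82 ± 0.22 and -2.15 ± 0.23. Ankrd37 was called lower in untreated KO than WT, at -0.94 (adjusted p = 0.047), with a log2 change after LPS of -1.68 in WT.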

How the data were processed

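Per the labels' protocols, total RNA was captured on oligo-dT beads and both ends of the cDNA were read. The authors deposited whole-number counts per gene for 24 libraries; the submitters' processing notes name STAR, edgeR and build mm39, and no source used here gives versions, annotation, strand or multi-read settings. Of 56941 IDs, 51948 (91.2%) matched a symbol. The total of each library is its depth, and spread is the SD over 4 libraries.

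The counts were fitted here with edgeR 4.0.16 (R 4.3.3): TMM scaling, a filter at a minimum count of 10 and total of 15 (14757 genes), 1 quasi-likelihood fit of all 24 libraries with a mean per group, and Benjamini-Hochberg adjustment over all tested genes. Tests are 2-sided. CPM use TMM-scaled library sizes. Per-kilobase levels divide by the union exon length of GENCODE M21, a different build from that of the counts, and are approximate. Isoenzyme ratios used a pseudocount of 0.5 counts and exact permutation tests. The procedure was tested on simulated data. Every pair of libraries of a group differed by more than sampling noise.

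Same-numbered LPS and untreated libraries deviated together in KO (correlations 0.155 to 0.296) and WT (0.113 to 0.15), each pair over 0.1, so in these genotypes the numbers were taken to pair the libraries, from the data and not from a statement in the labels. Alternatives were size factors by median of ratios, total counts, no filter, a stricter filter (1 CPM in 4 libraries), the replicate block, compared groups alone, DESeq2 1.42.0, leaving out libraries, and a ratio pseudocount of 5. Members, lists and alternatives were chosen with earlier results of these data known. Values in each library are given for genes called after LPS with an absolute log2 fold change over 1 and for those called between genotypes; genes shown for their spread, and Taldo1 and Hif1a between genotypes, were named after their values were seen. Of other lists, called genes with a log2 change over 1 in WT, or called between genotypes, are named; some genes that this rule selects are not reported here.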

Additional observations from a re-analysis of the deposited data

Results flagged for a closer look

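In 6 of the 192 groups of 4 libraries, 1 library lay far from the other 3 on the scale of the range of the group; chance alone marks about 1 in 20 groups. Hk3 stood at 291.1 CPM in untreated dCIS library 4, against 260.1 to 262.9 CPM in the other 3. Pfkfb2 stood at 0.2451 CPM in dCIS LPS library 4, against 0.729 to 0.8212 CPM. Ldhb read 2.115 CPM in WT LPS library 3, against 0.7349 to 0.9691 CPM. Slc16a1 was at 8.793 CPM in untreated KO library 2, against 16.04 to 16.93 CPM, and at 14.42 CPM in untreated dCIS library 2, against 17.66 to 18.16 CPM. Tkt was at 470.2 CPM in WT LPS library 1, against 413.5 to 419.1 CPM.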

How the results depend on the processing

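Under total counts alone 27 of the 32 genes were called after LPS in KO and 26 genes were called in 1 direction in the 3 genotypes, and 33 changes turned below 0, 11 of them called under neither scaling. In KO these were Pfkl -0.38, Aldoa -0.56, Gapdh -0.73, Pgk1 -0.21, Eno1 -0.72, Ldha -0.39, Slc16a3 -0.60 and Pgd -0.71. In dCIS they were Pfkl -0.41, Aldoa -0.51, Gapdh -0.57, Pgk1 -0.16, Pgam1 -0.53, Eno1 -0.60, Eno2 -0.0037, Pkm -0.62, Ldha -0.44, Slc16a3 -0.32, G6pdx -0.49 and Pgd -0.57. In WT they were Pfkl -0.15, Aldoa -0.45, Tpi1 -0.71, Gapdh -0.46, Pgk1 -0.0024, Pgam1 -0.63, Eno1 -0.48, Eno2 -0.31, Pkm -0.66, Ldha -0.18, Slc16a3 -0.37, G6pdx -0.73 and Pgd -0.61. That scaling moves the median of all tested genes to -0.80 or -0.81, and these values move with it. Under it 11539 of the 14757 tested genes were called after LPS in KO. How many of all tested genes it called in 1 direction in the 3 genotypes is not given here. Over all alternatives and comparisons, 401 of 5466 log2 changes had another sign than the value with TMM and all libraries while called under neither setting.

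For untreated KO against WT, the count of called genes was 0 with total counts, with no filter, without both KO libraries 2 and without any 1 of the 8 libraries (0 to 0), 2 with the replicate block over all groups (G6pdx and Taldo1), 4 in the compared groups alone and 2 in DESeq2. For KO against WT after LPS it was 2 with no filter, 1 with the replicate block over all groups and 2 in the compared groups alone. The cause was not tested. Size factors by median of ratios, the stricter filter and a pseudocount of 5 counts for the ratios moved no count by over 1.5 times.

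The replicate block within the genotype raised the count after LPS in dCIS to 29 (19 higher, 10 lower), adding Gpi1, Pfkl, Aldoa, Tpi1, Gapdh, Pgk1, Pgam1, Ldha, Slc16a3 and Pgd. In dCIS the numbers are not shown to pair the libraries: the correlations of same-numbered libraries were 0.069, 0.339, 0.258 and 0.0396, although every library correlated best with its own number. Between KO or dCIS and WT the numbers mark no shared source in the labels. Apart from the genes named beside their blocked values, the block changed no call in KO or WT. Genes of about 1 CPM, such as Ldhb, are limited by depth.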

Other observations

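Of all tested genes, 61.6% in KO, 64.7% in dCIS and 61.4% in WT were called after LPS, with median log2 fold changes of 0.02, -0.05 and 0.0031. Of 15 tested genes of glycogen metabolism, 1 rose and 10 fell in KO, 3 and 7 in dCIS, and 2 and 10 in WT, so 73.3%, 66.7% and 80% were called, with median log2 fold changes of -0.63, -0.43 and -0.44. Phka1, a phosphorylase kinase subunit, stood at -1.86 ± 0.29, -1.68 ± 0.29 and -1.92 ± 0.29 in KO, dCIS and WT (log2 ± SE). Of the 6 NADPH oxidase subunits, which use the NADPH that the pentose phosphate pathway yields, 6 rose in KO, 5 in dCIS and 5 in WT, with medians of 0.55, 0.62 and 0.59. Cybb, the catalytic subunit, rose by 1.91 ± 0.14, 2.04 ± 0.14 and 2.06 ± 0.14 after LPS, and was called higher in untreated KO than WT, at 0.48 (adjusted p = 0.0324). Of the 11 macrophage genes, 7 rose and 1 fell in KO and in dCIS, and 8 and 1 in WT (72.7%, 72.7% and 81.8% called), with medians of 0.46, 0.45 and 0.52.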
